A study of Homo sapiens with 4 samples.

Results

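IDO1, the enzyme that starts tryptophan breakdown outside the liver, and 6 further genes that use tryptophan or kynurenine (TDO2, AFMID, KMO, KYNU, AADAT and WARS1) were followed on 4 arrays of human embryonic stem cells. The genes were found by their annotated symbol, which gave 7 of 20041 named genes and 15 of 47296 probes. They were chosen by role, with IDO1 selected on its difference between the nicotinamide and the E8 array, where it was among the lowest genes, so that its values there are a description and no test was made of them. Each condition was 1 sample on 1 Illumina Expression BeadChip. In E8 medium, cells were given 10 mM nicotinamide, also called niacinamide and a vitamin B3, for 24 h (Nam), 10 µM Y27632, an inhibitor of the kinase ROCK, for 24 h (Y27632), or BMP4 for 6 days as the control of mesoderm formation (Mesoderm). The untreated condition was E8, a defined medium for pluripotent cells, labelled 24 h, and all cells were grown on matrigel. The BMP4 dose is not given in the sources used here, no culture was kept in E8 alone for as long as the Mesoderm culture, and the labels name both H9 and H1 as the line, so no line is named here.

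Tryptophan is among the scarcest amino acids in proteins, and most of what is not used for protein is broken down through kynurenine. IDO1 and TDO2 carry out the same first reaction, which opens the indole ring to formylkynurenine, and AFMID removes the formyl group to give kynurenine. KMO and KYNU lead kynurenine on towards quinolinic acid and the de novo synthesis of NAD, while AADAT diverts it to kynurenic acid. Nicotinamide feeds NAD synthesis by the separate salvage route. WARS1 attaches tryptophan to its transfer RNA, and in human cells both IDO1 and WARS1 are classical targets of interferon gamma.

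The mean signal per probe was 528.5 on Nam, 564.7 on Y27632, 580.9 on Mesoderm and 620.5 on E8, so the Nam array was the dimmest before normalization. Between 16509 (Y27632) and 18051 (Nam) probes were detected per array, where detected means a deposited detection p-value of at most 0.01. Levels below are background-corrected, quantile-normalized log2 intensities, and a difference is the first named array minus the other. With 1 array per condition no difference has a replicate check. As a technical yardstick, different probes of 1 gene had differences with a pooled SD of 0.30 between Nam and E8 and also between Nam and Y27632, of 0.25 between Y27632 and E8, and of 0.43 between Mesoderm and E8. A gene is called higher or lower at 1.5-fold on the normalized values, also where only 1 of the 2 arrays detected it, and the fold that the detection limit allows can then be smaller. Markers of pluripotent cells were detected on Nam, Y27632 and E8 for 6 of 6 genes with a detected probe, and their summed intensity was 34145, 35528 and 36023. On Mesoderm that sum was 10576, SOX2 was not detected, and 6 of 7 mesoderm markers were detected, against 2 on Nam, 0 on Y27632 and 1 on E8.

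IDO1 was measured by 2 probes, and both were detected on Y27632 and E8 and on neither Nam nor Mesoderm. The brighter probe had a signal of 152.3 on Nam, 251.6 on Y27632, 163.6 on Mesoderm and 328.9 on E8. The second probe had 152.5 on Nam, 224.5 on Y27632, 134.8 on Mesoderm and 306.9 on E8. Both probes thus placed the 4 arrays in a low pair, Nam and Mesoderm, and a high pair, Y27632 and E8. On Nam the detection p was 0.0221 for each probe, close to the threshold, while on Mesoderm it was 0.0455 for the brighter and 0.696 for the second probe, and on the other arrays it was listed as 0.

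On the normalized scale the brighter IDO1 probe stood at 5.40 on Nam, 7.15 on Y27632, 5.24 on Mesoderm and 7.50 on E8. Nam minus E8 was -2.10 for this probe and -1.93 for the second, with an SD of 0.12 between the 2 probes, which is smaller than the pooled SD of 0.30. Since Nam did not detect either probe, IDO1 is given as at least 3.89-fold lower on Nam than on E8 by the brighter probe and at least 3.48-fold by the second. The size depends on the processing: Nam minus E8 was -0.84 with no background correction, -1.50 with an offset of 50 and -1.68 in the authors' values. The bound takes the dim array at the lowest value of any detected probe there, 5.54 on Nam, or at the dim probe's own value where that is higher. Among the 11390 genes measured in this comparison IDO1 lay at the low end of the normalized differences, beside CFAP95, OLIG3, FCF1 and SORBS2. Nam did not detect IDO1 or OLIG3, so no exact place in that order is given.

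The Y27632 array gives a second array of the same treatment time against which the Nam level can be set, though the Nam value is the same one that chose the gene. Nam minus Y27632 was -1.75 by the brighter and -1.40 by the second probe, or at least 3.04-fold and at least 2.41-fold lower on Nam. Y27632 minus E8 was -0.36 by the brighter and -0.53 by the second probe (mean -0.44, SD 0.12). Both values are above the pooled SD of 0.25 and below the fold that counts as called. With median scaling, Y27632 minus E8 of IDO1 was -0.58 while the median of all genes moved to -0.16.

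Mesoderm minus E8 of IDO1 was -2.26 by the brighter probe and -2.81 by the second, an SD of 0.39 that is near the pooled SD of 0.43 for this comparison. The bounds were at least 3.68-fold and at least 3.29-fold lower on Mesoderm. In such bulk samples, fewer cells with the transcript and less transcript per cell cannot be told apart. No order can be given between Nam and Mesoderm, since neither array detected IDO1.

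**Figure D1:**
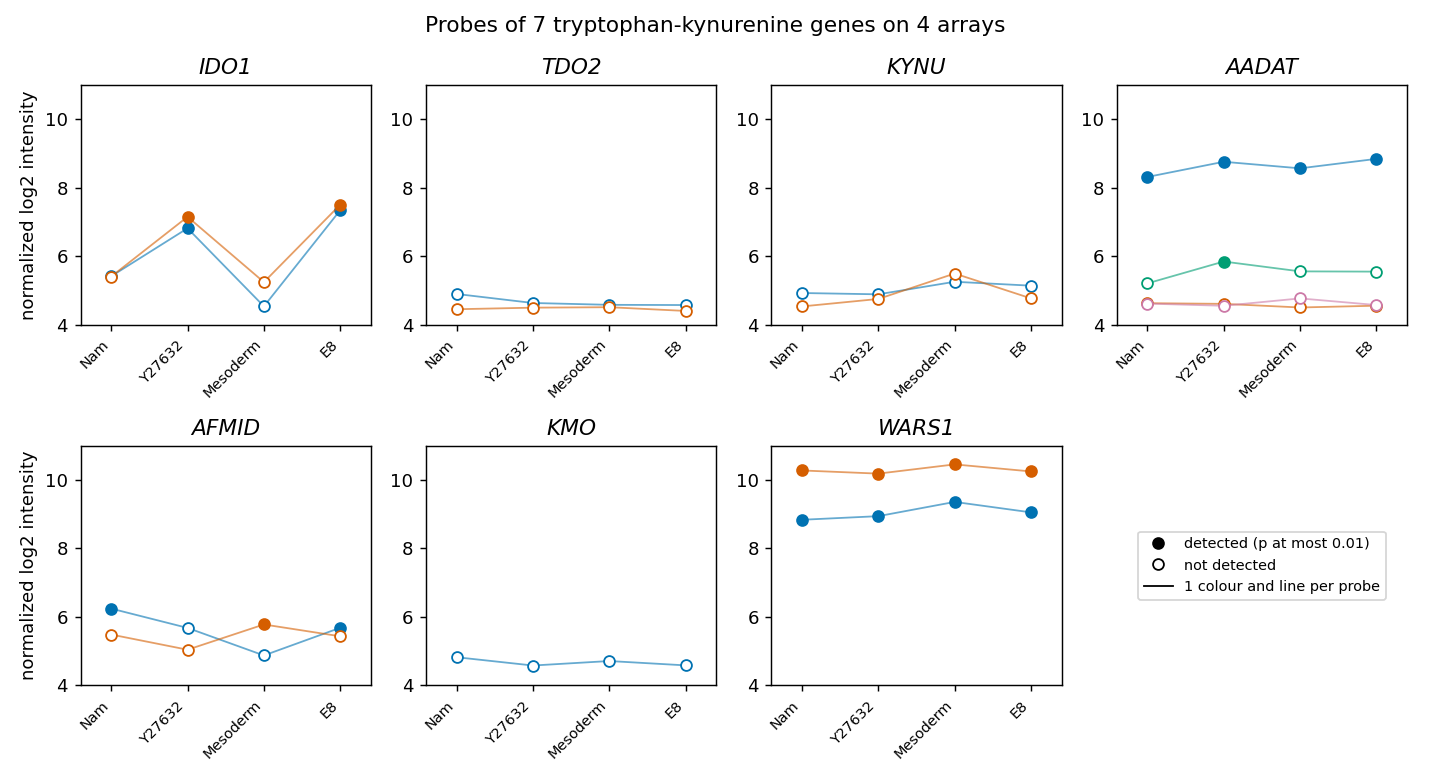
Normalized log2 intensity of each of the 15 probes on the Nam, Y27632, Mesoderm and E8 arrays, with 1 panel per gene, 1 line and colour per probe, filled points where the probe was detected (p at most 0.01) and open points where it was not. Both IDO1 probes are filled on Y27632 and E8 and open on Nam and Mesoderm, WARS1 is filled throughout, and TDO2, KYNU and KMO are open throughout.

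TDO2, which carries out the same reaction as IDO1 mainly in liver, was not detected on any array by either of its 2 probes. Its detection p ranged from 0.169 on Nam to 0.621 on E8 for the brighter probe, and its signals were 137.9 on Nam, 131.6 on Y27632, 137.6 on Mesoderm and 128.7 on E8. KMO, the hydroxylase that commits kynurenine to the NAD branch, had 1 probe with signals of 135.5 on Nam, 128.7 on Y27632, 144.6 on Mesoderm and 129.4 on E8, and its detection p was at least 0.243. The second TDO2 probe had a detection p of at least 0.745. These levels cannot be told from the negative controls of the arrays, and no difference is given for either gene.

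KYNU, the hydrolase that cleaves kynurenine and hydroxykynurenine, had 2 probes that were annotated to different transcripts. The first had signals of 122.6 on Nam, 136.9 on Y27632, 171.3 on Mesoderm and 138.6 on E8. The other probe had 138.8 on Nam, 142 on Y27632, 163.9 on Mesoderm and 153.5 on E8. Mesoderm was the highest array for both probes, with detection p of 0.0195 and 0.0442, which passes 0.05 and misses the threshold of 0.01 used here. At the looser threshold KYNU would count as detected on Mesoderm alone.

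AFMID, the formamidase of the second step, lay close to the detection limit, and its 2 probes disagreed. The first had signals of 181.1 on Nam, 167.1 on Y27632, 151.4 on Mesoderm and 174.8 on E8, and was detected on Nam and E8. The second had 154.5 on Nam, 147.1 on Y27632, 181.1 on Mesoderm and 164.5 on E8, and was detected on Mesoderm alone. By the first probe Nam minus E8 was 0.56, and AFMID was at least 1.34-fold higher on Nam than on Y27632; the second probe gives no difference among Nam, Y27632 and E8, since none of them detected it. Against E8, AFMID was at least 1.04-fold lower on Mesoderm by its first probe and at least 1.14-fold higher by its second, so the array data give it no common direction there.

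AADAT, which makes kynurenic acid and also acts on aminoadipate in lysine breakdown, was carried by 1 of its 4 probes. That probe was detected on every array, with signals of 398.3 on Nam, 529.2 on Y27632, 504.6 on Mesoderm and 645.3 on E8. The normalized levels were 8.31 on Nam, 8.76 on Y27632, 8.56 on Mesoderm and 8.84 on E8, so Nam was the lowest array. Nam minus E8 was -0.53 and Nam minus Y27632 was -0.44, both above the pooled between-probe SD of 0.30 and short of 1.5-fold. Mesoderm minus E8 was -0.28 and Y27632 minus E8 was -0.09, both within their pooled SDs. Of the other 3 AADAT probes, 1 was detected on Y27632 alone and was at least 1.23-fold lower on Nam than on Y27632, and 2 were detected nowhere. Median scaling brought Nam minus E8 of AADAT to -0.74, past 1.5-fold, in a setting where the median of all genes was -0.15.

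WARS1, the cytosolic tryptophanyl-tRNA synthetase, was detected on all 4 arrays by both of its probes. The brighter probe had signals of 1242 on Nam, 1235 on Y27632, 1524 on Mesoderm and 1497 on E8, and the second had 522.3 on Nam, 586.8 on Y27632, 779.4 on Mesoderm and 723.3 on E8. After normalization the brighter probe lay at 10.28 on Nam, 10.18 on Y27632, 10.45 on Mesoderm and 10.25 on E8. Nam minus E8 was 0.03 by the brighter and -0.22 by the second probe, and Y27632 minus E8 was -0.06 and -0.11. Mesoderm minus E8 was 0.21 by the brighter and 0.31 by the second probe. Each of these values is smaller than the pooled between-probe SD of its comparison, and the probes gave both signs on Nam. WARS1 was thus detected at close levels on all 4 arrays, including the 2 that did not detect IDO1.

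The starts of WARS1 are shown because the gene is known to be transcribed from an upstream and from an inner, interferon-responsive start. Both runs are the 250 bases before an annotated start from RefSeq on GRCh38.p14, minus strand, 5′ to 3′, with matches to the interferon-stimulated response element, read as GAAA, any 2 bases and GAAA again, in capitals. The first, at chr14:100375348-100375597, lies before the inner start, and the second, at chr14:100376328-100376577, before the upstream start.
WARS1 inner start: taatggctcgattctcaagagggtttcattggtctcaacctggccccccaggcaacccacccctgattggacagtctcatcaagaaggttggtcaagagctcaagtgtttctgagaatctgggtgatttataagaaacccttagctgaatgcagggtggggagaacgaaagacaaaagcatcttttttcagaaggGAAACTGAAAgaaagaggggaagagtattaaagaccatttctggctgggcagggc
WARS1 upstream start: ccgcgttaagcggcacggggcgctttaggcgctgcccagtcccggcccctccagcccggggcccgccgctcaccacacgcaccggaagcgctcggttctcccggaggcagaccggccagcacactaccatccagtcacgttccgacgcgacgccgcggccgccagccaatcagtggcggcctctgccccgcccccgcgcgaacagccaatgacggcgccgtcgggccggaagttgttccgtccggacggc
The inner run holds 1 match, GAAACTGAAA, from 55 to 46 bases before the start, and the upstream run holds 0. The arrays do not say which start was used.

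The same search over both strands was made in the 9 windows of 250 bases that the table held for 6 of the 7 genes, and IDO1 was not in it. The interferon-stimulated response element was found in 1 of the 9, against 3.02% of all 35116 windows. The gamma-activated element TTCNNNGAA was found in 2, the inner window of WARS1 and that of KYNU, against 6.57% of all windows. The core of the aryl hydrocarbon receptor element, GCGTG, was in 2, those of AFMID and of the upstream WARS1 start, against 32.2%, and the amino acid response element TTGCATCA was in 0, against 0.772%. A match describes letters in the window only.

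Of the 7 genes, 4 were detected on at least 1 array and could be compared (IDO1, AADAT, AFMID and WARS1). In Nam minus E8, 1 of these 4 was called lower, IDO1, and 0 higher, where 6.69% of all 11390 measured genes were called lower and 4.93% higher. That comparison chose the gene, so nothing is read from the count. In Nam minus Y27632, 1 of 4 was lower, again IDO1, where 4.89% of all genes were lower and 4.69% higher. Nam did not detect IDO1, so it entered through Y27632 and could only come out lower. In Y27632 minus E8, 0 of 4 were called, where 2.03% of genes were lower and 1.58% higher. In Mesoderm minus E8, 2 of 4 were lower, IDO1 and AFMID by its first probe, and 0 higher. Of all genes, 22.5% were lower and 20.3% higher. Mesoderm detected neither of these 2 by those probes, so both entered through E8 and could only come out lower. The bound for AFMID was at least 1.04-fold, short of 1.5-fold. The median over the 4 measured members was -0.25 in Nam minus E8 (0.04 over all genes) and -0.18 in Nam minus Y27632 (0.03). It was -0.07 in Y27632 minus E8 (0.01) and -0.54 in Mesoderm minus E8 (-0.02). IDO1 is 1 of the 4 values in each, and it was chosen on its Nam minus E8 difference, so nothing is read from these medians. The comparisons with E8 share that array, and those with Nam share the Nam array.

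**Figure D2:**
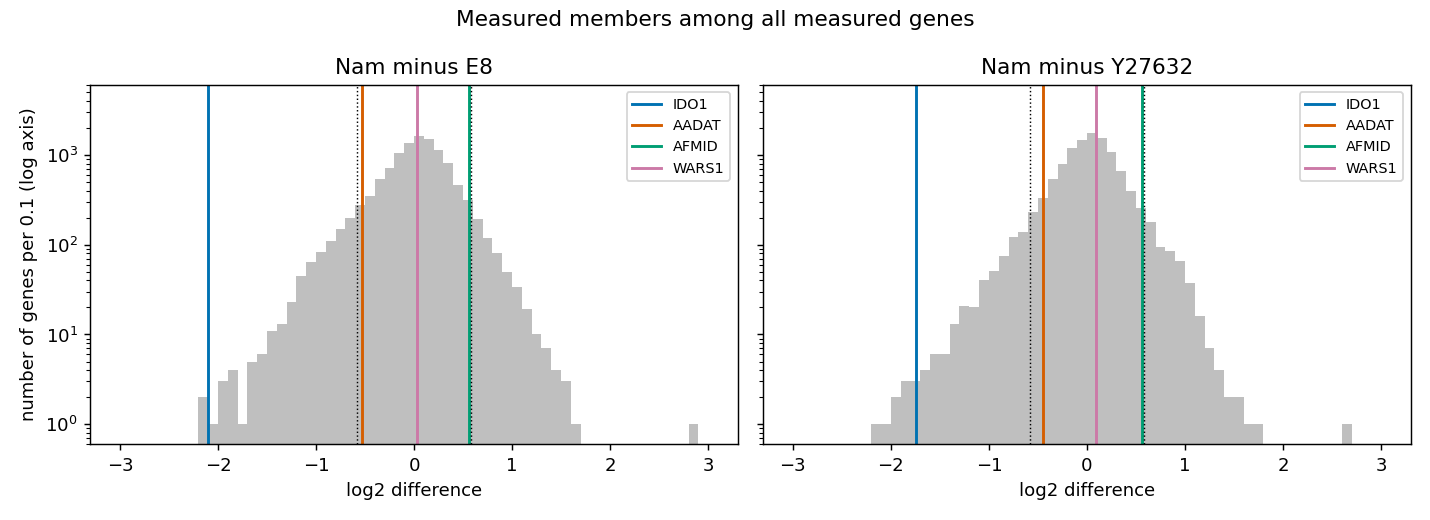
Number of genes per 0.1 of log2 difference (log axis) for Nam minus E8 and Nam minus Y27632, with coloured lines at the 4 measured members and dotted lines at 1.5-fold. IDO1 lies at -2.10 and -1.75 in the left tail, while AADAT (-0.53 and -0.44), AFMID (0.56 in both, by a probe that Y27632 did not detect) and WARS1 (0.03 and 0.09) lie inside the dotted lines.

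Of 7 further genes of kynurenine and quinolinate metabolism, KYAT1, KYAT3, GOT2 and QPRT were detected and IDO2, HAAO and ACMSD were not. In Nam minus E8, 0 of these 4 were called (median 0.05), where 6.69% of all genes were lower and 4.93% higher. KYAT1 and KYAT3, which like AADAT can make kynurenic acid, stood at 0.00 and 0.11. GOT2, a mitochondrial aspartate aminotransferase, was at 0.27, and QPRT, which turns quinolinate into an NAD precursor, at -0.05. In Mesoderm minus E8, QPRT was higher by 0.67 and GOT2 lower by a difference of -0.64, 2 of 4 called, where 20.3% of all genes were higher and 22.5% lower. Of 9 genes of the serotonin and indole branches only MAOA, a monoamine oxidase, was detected, at -0.55 in Nam minus E8 and at -0.66 in Nam minus Y27632. TPH1 and TPH2, which start serotonin synthesis, were not detected on any array.

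Among carriers of tryptophan and other amino acids, 6 of 9 genes were measured in Nam minus E8 (median 0.04). Of these 0 were called, where 6.69% of all genes were lower and 4.93% higher. With 6 genes, nothing is read from that count. SLC7A5, the light chain of the main carrier of large neutral amino acids, had the levels 10.77 on Nam, 10.55 on Y27632, 10.48 on Mesoderm and 10.25 on E8, so its difference of 0.52 on Nam was the largest of 3 differences from E8 of the same sign. Its partner SLC3A2 stood at -0.13 on Nam. On Mesoderm, SLC16A10, a carrier of aromatic amino acids, was lower by a difference of -2.01 and SLC7A8 by -1.66, while SLC36A4 was higher by 1.33. Of the 6 measured, 2 were thus called lower and 1 higher, where 22.5% of all genes were lower and 20.3% higher.

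Kynurenine and kynurenic acid are ligands of AHR, the aryl hydrocarbon receptor. Of 9 genes of this pathway 5 were measured in Nam minus E8 (median -0.38). Of these 1 was called lower, CYP1B1, a cytochrome P450 that AHR induces, where 6.69% of all genes were lower and 4.93% higher. CYP1B1 entered that comparison because E8 detected it and Nam did not, so it could only come out lower. CYP1B1 stood at 4.998 on Nam, where it was not detected, 7.02 on Y27632, 12.17 on Mesoderm and 6.53 on E8, and was at least 1.99-fold lower on Nam than on E8. It was thus low with IDO1 on Nam and, unlike IDO1, far above E8 on Mesoderm, at 5.63. AHR itself differed by -0.43 on Nam and -0.89 on Mesoderm by its brighter probe. Over its 2 detected probes the Mesoderm difference had a mean of -0.54 and an SD of 0.49. TIPARP, another gene that AHR induces, differed by 0.23 on Nam and 1.19 on Mesoderm. CYP1A1 and AHRR were not detected on any array.

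Interferon gamma is the main known inducer of IDO1. Its signalling list had 8 measured genes in Nam minus E8 with 0 called and a median of -0.11. The receptor chains IFNGR1 and IFNGR2 stood at 0.37 and -0.02, the kinases JAK1 and JAK2 at -0.10 and -0.13, and the inhibitor SOCS1 at -0.41. IFNG and the factors IRF1 and IRF8 were not detected on any array. Of the interferon targets, 10 of 23 were measured in Nam minus E8 (median -0.23, highest ISG15 at 0.00). Of these 1 was lower, IFITM1, at -0.63, where 6.69% of all genes were lower and 4.93% higher. CXCL9, CXCL10, GBP1 and PSMB9 were not detected on any array.

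On Mesoderm the interferon targets went both ways while IDO1 was low. Of 15 measured, 7 were called higher and 4 lower, where 20.3% of all genes were higher and 22.5% lower, with IFIT2 at least 4.596-fold higher, GBP2 at least 3.37-fold higher, MX1 at least 2.48-fold lower and TAP1, a peptide transporter, at -0.87. Of the 7 higher ones, E8 did not detect 5 (GBP2, GBP4, IFIT1, IFIT2 and OAS1), which entered because Mesoderm detected them and so had to be higher, and of the 4 lower ones Mesoderm did not detect 2. Of the signalling list 4 of 8 were higher and 1 lower, with SOCS3 at 1.89, IFNGR1 at 1.42 and STAT3 at -1.16. Among 9 genes named as regulators of IDO1 or of inflammation, 3 were measured in Nam minus E8. Of these 0 were called, where 6.69% of all genes were lower and 4.93% higher. IL6, PTGER4 and PTGS2 were detected on Mesoderm and not on E8, so that they could only come out higher there, at least 3.73-fold, at least 1.52-fold and at least 1.03-fold, and the last bound is short of 1.5-fold.

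WARS1 was set beside the other synthetases that load transfer RNAs. Of 17 measured cytosolic synthetases, 0 were called in Nam minus E8, where 6.69% of all genes were lower and 4.93% higher. Their median was 0.01, with a range from -0.27 for KARS1 to 0.24 for TARS1. In Y27632 minus E8, 0 were called (median -0.07), where 2.03% of all genes were lower and 1.58% higher. With 17 genes, nothing is read from these 2 counts. In Mesoderm minus E8, 4 of 17 were lower (VARS1 -0.91, TARS1 -0.82, IARS1 -0.78 and LARS1 -0.76), where 22.5% of all genes were lower. The count is thus near that share. The median was -0.41, while WARS1 stood at 0.21 and RARS1 was highest at 0.57. WARS2, the mitochondrial counterpart of WARS1, stood at 0.53 in Nam minus E8 and at 0.62, past 1.5-fold, in Nam minus Y27632. In the latter 4.69% of all genes were higher. WARS2 had 1 detected probe, and its level of 5.86 on Y27632 was close to the lowest value of any detected probe there, 5.82. Genes of the GCN2 and ATF4 response to amino acid shortage had a median of 0.17 in Nam minus E8 and went both ways. ATF4 stood at 0.16 by its brightest probe, with a mean of -0.05 and an SD of 0.23 over 3 detected probes. The lowest was TRIB3 at -0.43, EIF2AK4, which is GCN2 itself, stood at -0.37, and PSAT1 stood at 0.41. ASNS, the asparagine synthetase, was the 1 of 10 past 1.5-fold, where 4.93% of all genes were higher. It stood at 0.59 by its brighter probe, though its mean over 2 probes was 0.47 (SD 0.17), short of 1.5-fold.

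**Figure D3:**
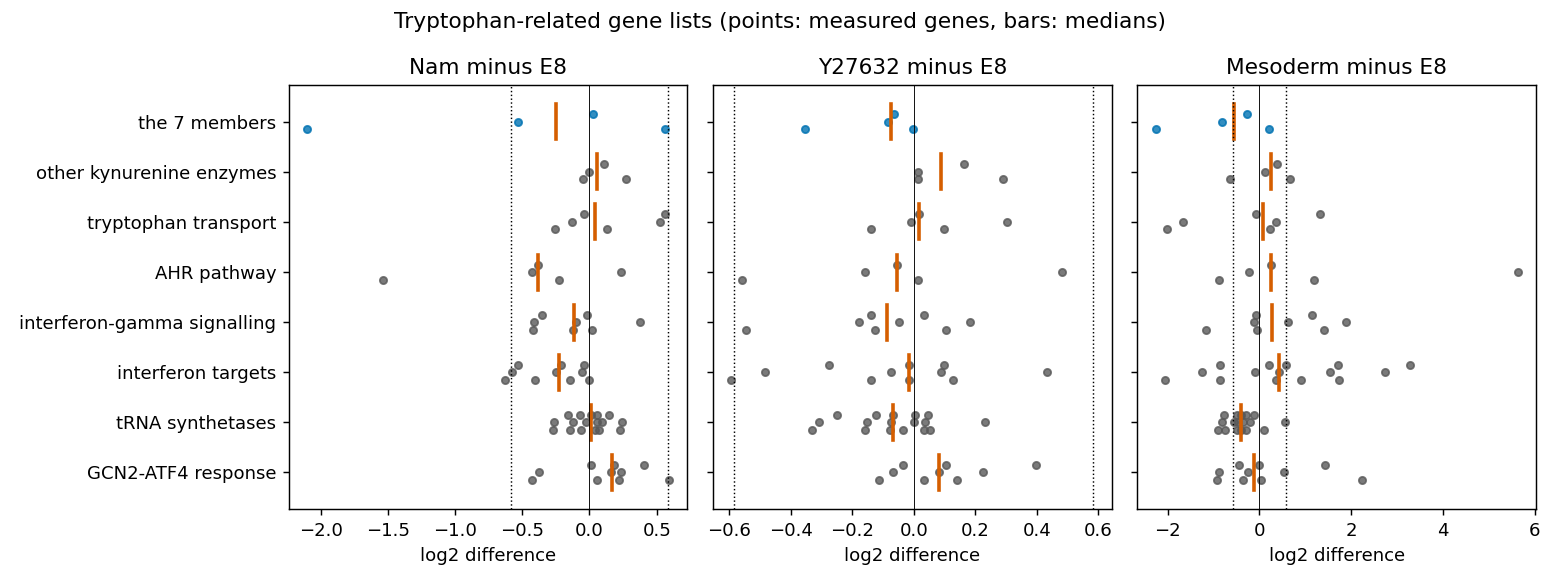
Log2 differences of the measured genes of 8 lists for Nam minus E8, Y27632 minus E8 and Mesoderm minus E8, with 1 point per gene, orange bars at the list medians, dotted lines at 1.5-fold and a separate scale per panel. On Nam the outlying points are IDO1 (-2.10) and CYP1B1 (-1.54), and on Mesoderm CYP1B1 lies at 5.63.

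Markers of other cell types were examined beside these values, among them cells known to express IDO1 or TDO2. Of 7 macrophage and dendritic cell markers, PTPRC, CD14, CSF1R and ITGAX were not detected on any array, and the summed intensity of CD68, AIF1 and CD86 was 737.7 on Nam, 1043 on Y27632, 716.7 on Mesoderm and 1030 on E8. The sum rests mainly on CD68, whose 2 probes disagreed on Mesoderm: Mesoderm minus E8 was -0.66 by the brighter, with a mean of 0.55 and an SD of 1.71 over both. AIF1 stood at -0.57 in Nam minus E8 by its brighter probe, with a mean of -0.30 and an SD of 0.38 over 2 probes. CD86 stood at -0.25 there, and in Mesoderm minus E8 AIF1 and CD86 stood at -0.08 and -0.21. Their part in the IDO1 values was not tested. Of 7 trophoblast and placenta markers, CGA, CGB5, HSD3B1 and CDX2 were below detection on each array. The sum of the others was 109.7 on Nam, 153.6 on Y27632, 247.6 on Mesoderm and 85.96 on E8. Of these others 1 was detected on Nam, 1 on Y27632, 3 on Mesoderm and 0 on E8. The sum on E8 thus rests only on values that were not detected. On Nam only ERVW-1 was detected, at 5.60, and on Y27632 only PGF, at 6.34, so those sums rest in part on values that were not detected. Of the hepatocyte markers 0 were detected on Nam or E8, with ALB detected on Y27632 and APOA1 on Mesoderm. The endothelial markers PECAM1, CDH5 and TIE1 were not detected, and the sum of KDR, TEK and VWF was 334.5 on Nam, 298.5 on Y27632, 1436 on Mesoderm and 330.4 on E8. The fibroblast markers other than DCN, which was not detected, summed to 3692 on Nam, 4926 on Y27632, 5825 on Mesoderm and 4365 on E8. The sum rests mainly on THY1 on Nam (level 11.59), Y27632 (11.93) and E8 (11.71), and mainly on COL1A2 on Mesoderm (11.97). The markers did not move together: on Mesoderm THY1 stood at -2.97 against E8, COL1A1 at 1.97, COL1A2 at 2.24 and PDGFRB at 3.66, and LUM was at least 7.23-fold higher. On Nam, COL1A2 stood at -0.96.

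The genes whose pattern over the 4 arrays was most like that of IDO1 were ranked by the Euclidean distance between log2 levels centred on each gene, among 12082 other genes. They were NUP43, a nuclear pore component (distance 0.28), OLIG3, a neural transcription factor (0.31), SLITRK1, a neuronal membrane protein (0.37), GDF3, a ligand of the TGF-beta family found in pluripotent cells (0.44), and DEPTOR, an inhibitor of mTOR (0.49). All 5 had their 2 high values on Y27632 and E8. NUP43 and GDF3 were detected on all 4 arrays, with Nam minus E8 at -1.92 and -1.54 and Mesoderm minus E8 at -2.10 and -2.18. OLIG3 and SLITRK1, like IDO1, were detected on 2 arrays, and were at least 2.34-fold and at least 1.98-fold lower on Nam than on E8. DEPTOR was detected on 3 arrays and was at least 2.97-fold lower on Mesoderm. For genes not detected on an array, the likeness rests in part on values near background. The nearest genes to WARS1 were APEX2, RALY, MGAT2, CDPF1 and SCARB2, at distances of 0.02 to 0.03, in a range where most genes differ little between arrays. With 4 points per gene, likeness of this kind is a description of these arrays.

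**Figure D4:**
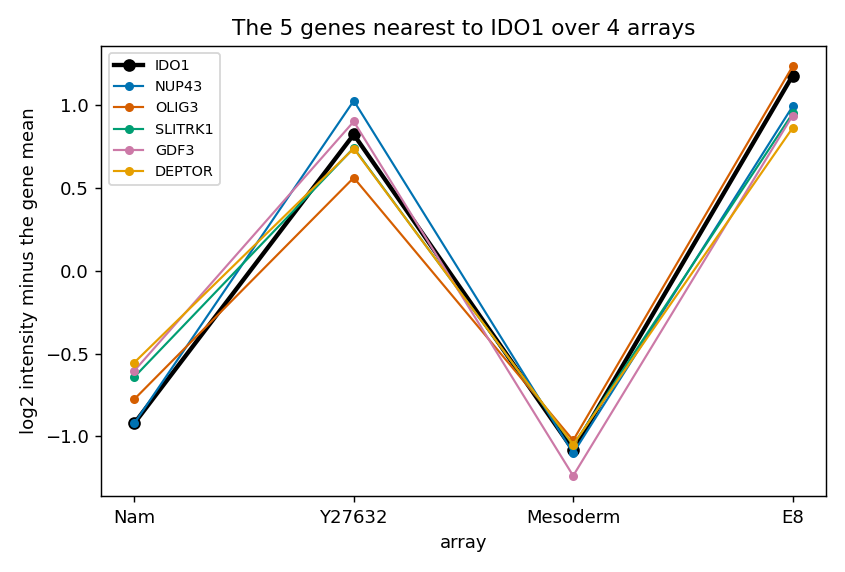
Log2 intensity minus the mean of each gene on the Nam, Y27632, Mesoderm and E8 arrays for IDO1 (black) and the 5 genes nearest to it. All 6 lines are above their mean on Y27632 and E8 and below it on Nam and Mesoderm.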

How the data were processed

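The authors deposited a table that gives, for 47296 probes and 4 arrays, the non-normalized signal intensity and its detection p-value, per the file headers. They also deposited a table of normalized log2 values, whose method is not given in the sources used here and which was identical to the series matrix (0 cells differed). Its columns have a median of 5.58 each, with no centring of genes. Per the labels' protocols, RNA was labelled with a TargetAmp-Nano kit. Samples were assigned by title and columns by name. Signals were processed with limma 3.58.1 in R 4.3.3 (neqc: normal-exponential background from the detection p-values, offset of 16, quantile normalization, log2), and tables were made in Python 3.11.15. The offset understates differences of dim genes. Probes were named by the platform annotation: 30105 had 1 symbol, 8 several and 17183 none in that annotation. Each gene took the values of its brightest probe among those detected (p at most 0.01) on any array, and it entered a comparison when detected on at least 1 of the 2 arrays. Calls are by size (1.5-fold), with no test, since there is 1 array per condition, and the number of arrays limits the precision. The calling was tested on simulated data. The members and the gene lists were chosen with earlier results of these data known. Named were all member probes, list genes that were called or at the ends of a list, the genes next to IDO1 in the order of differences, and the 5 most like IDO1 and WARS1; other list genes were named for their role after their values were seen. Alternatives varied the background, offset, scaling, arrays, source of values, detection threshold, filter, probe and fold.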

Additional observations from a re-analysis of the deposited data

How the results depend on the processing

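IDO1 kept its sign and stayed at least 1.5-fold lower in Nam minus E8 under each of the 8 alternatives that gave a value. The values ran from -2.27 with median scaling to -0.84 with no background correction. A detection p of at most 0.05 and no filter on dim probes changed only which probes passed, and left it at -2.10. All settings reuse the same Nam and E8 arrays on which the gene was chosen, so they show only how its size depends on processing. The difference was -1.50 with an offset of 50, a setting that changed nothing but the offset. It was -1.68 in the values normalized by the authors, and why these differ from the main setting was not tested. With detection required on both arrays it had no value. Then 0 members were called in Nam minus E8, Nam minus Y27632 or Mesoderm minus E8, since Nam and Mesoderm did not detect IDO1 and Mesoderm did not detect the brighter AFMID probe. Median scaling gave 2 members in Nam minus E8, IDO1 and AADAT. In Mesoderm minus E8, 1 member was called with no background correction, with an offset of 50, with the mean of the detected probes and at 2-fold, in place of 2.

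The counts of all genes called moved more. In Nam minus E8 they were 1324 in the main setting, 821 with detection on both arrays, 594 with an offset of 50, 257 at 2-fold and 217 with no background correction. In Nam minus Y27632 they were 1070, then 549, 396, 191 and 102 in the same settings, and 671 in the authors' values. In Y27632 minus E8 they were 397, then 154, 66, 45 and 10, and 178 in the authors' values, 644 with median scaling, 718 with detection p at most 0.05 and 804 with no filter. In Mesoderm minus E8 they were 4982, with 2654 without background correction and 2565 at 2-fold. With median scaling the all-gene median stood at -0.15 (Nam), -0.16 (Y27632) and -0.19 (Mesoderm) relative to E8, against 0.04, 0.01 and -0.02 in the main setting, a shift of -0.19, -0.17 and -0.17. The split of higher and lower calls then became 294 and 1406 for Nam minus E8 (562 and 762 in the main setting), 94 and 550 for Y27632 minus E8 (174 and 223) and 1848 and 3414 for Mesoderm minus E8 (2361 and 2621). No paired analysis was possible because each condition has 1 array.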
